A study of Arabidopsis thaliana with 3 samples.

Results

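The phosphate-responsive miRNAs of Arabidopsis, which are ath-miR399a, ath-miR399b, ath-miR399c, ath-miR399d, ath-miR399e, ath-miR399f, ath-miR827 and ath-miR778 (written without the prefix from here on), were examined in small RNA libraries of 22-day-old plants. They were chosen by name, as the rows of these 8 miRNAs without star strands, out of 328 rows in the cdf2 library, 338 in the dcl1-9 library and 328 in the Col library. The cdf2 plants are mutant for CDF2, a cycling DOF transcription factor, and the dcl1-9 mutant carries a DCL1 truncated in its C-terminal double-strand RNA-binding domains, where DCL1 is the enzyme that cuts miRNA precursors. Col is the wild type. All plants are labelled as ecotype Col, untreated and grown in soil under 16 h of light and 8 h of dark, and the libraries were made from seedlings. The study's methods name soil or MS medium for its plants, without saying which was used for the libraries. There is 1 library for each genotype, and how many plants it holds is not given in the sources used here. Every difference below is therefore between libraries and has no replicate check, and each interval is a 95% interval for counting error only. The reads carry no molecular identifiers and are not independent molecules. No mRNA was measured, so neither CDF2 nor DCL1 nor any miRNA target could be followed.

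In plants short of phosphate, the transcription factor PHR1 switches on MIR399 genes, and miR399 cuts the transcript of PHO2, a ubiquitin-conjugating enzyme that lowers phosphate transport. The non-coding RNA IPS1 binds miR399 without being cut and so holds it back. miR827 acts on NLA, a ubiquitin ligase that removes phosphate transporters from the plasma membrane, and miR778 acts on SUVH6, a histone methyltransferase. The phosphate supply of the plants is not given in the sources used here.

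The mature sequences, read from the RefSeq annotation of the TAIR10.1 assembly, show how little the miR399 forms differ, and the counts below are given by these forms. The 8 miRNAs have 7 distinct mature sequences of 21 bases and 3 seeds (bases 2 to 8, in capitals), and the 6 miR399 rows share 1 seed.
miR399a: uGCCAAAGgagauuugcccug
miR399b: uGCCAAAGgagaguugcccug
miR399c: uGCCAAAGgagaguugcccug
miR399d: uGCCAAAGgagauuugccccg
miR399e: uGCCAAAGgagauuugccucg
miR399f: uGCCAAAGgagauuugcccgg
miR827: uUAGAUGAccaucaacaaacu
miR778: uGGCUUGGuuuauguacaccg

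miR399b and miR399c have the same mature sequence. Counted from 1 at the 5′ end and written with the base of miR399b first, miR399a differs from it by G13U, miR399d by G13U and U20C, miR399e by G13U, C19U and U20C, and miR399f by G13U and U20G. Thus miR399a, d, e and f share G13U. They are called the minor forms here, since each had fewer reads than miR399b in every library.

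The mature miR399a lies at chr1:10227165-10227185 on the plus strand, miR399b at chr1:23345387-23345407 on the minus strand and miR399c at chr5:24962568-24962588 on the plus strand. The other miR399 genes form a cluster on chromosome 2, where miR399d lies at chr2:14442988-14443008 on the minus strand, miR399e at chr2:14443582-14443602 and miR399f at chr2:14445084-14445104, both on the plus strand. The 3 hairpins of this cluster span 2137 bases, with 426 bases between those of miR399d and miR399e and 1384 bases between those of miR399e and miR399f, and no protein-coding gene is annotated among them. miR827 lies at chr3:22122811-22122831 and miR778 at chr2:17349548-17349568, both on the minus strand. The hairpins of miR399a to miR399f and of miR827 overlap no annotated protein-coding gene, while that of miR778 lies in an intron of AT2G41620, on the same strand. The hairpins of the 2 genes that share a mature sequence are printed because their rows received unequal counts in the mutants, with the mature part in capitals.
MIR399b: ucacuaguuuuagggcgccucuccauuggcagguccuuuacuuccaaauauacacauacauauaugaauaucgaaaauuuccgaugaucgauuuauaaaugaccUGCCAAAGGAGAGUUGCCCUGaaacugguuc
MIR399c: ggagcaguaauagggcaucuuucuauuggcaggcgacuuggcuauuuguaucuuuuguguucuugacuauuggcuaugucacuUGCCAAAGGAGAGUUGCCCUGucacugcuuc

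The base at position 13 faces the same base throughout PHO2. The spliced PHO2 transcript holds 5 stretches in its 5′ UTR (chr2:14281770-14282126, minus strand) that pair with a miR399 form with at most 4 positions that are mismatched or G:U. They are printed in transcript order, with the bases that form Watson-Crick pairs with miR399b in capitals.
PHO2 at transcript base 680: uAGGGCAAaUCUuCUUUGGCA
PHO2 at transcript base 813: uAGGGCAuaUCUCCUUUGGCA
PHO2 at transcript base 902: uuGGGCAAaUCUCCUUUGGCA
PHO2 at transcript base 959: ucGaGCAAaUCUCCUUUGGCA
PHO2 at transcript base 1016: uAGaGCAAaUCUCCUUUGGCA

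All 5 stretches have A opposite position 13, which pairs with U and not with the G of miR399b and miR399c. miR399a formed 18 to 19 Watson-Crick pairs and miR399b 17 to 18, and miR399a had 1 more at all 5 stretches. Among the other minor forms, miR399d and miR399f each had more pairs than miR399b at 2 stretches and as many at 3, while miR399e had fewer at 3 and as many at 2. miR399b had the most pairs in IPS1, whose known miR399 stretch carries 3 extra bases at its centre and lies at chr3:3051224-3051247 on the plus strand. Capitals mark its bases paired with miR399b.
IPS1: uuGGGCAACUucuaUCCUUUGGCA

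There miR399b formed 18 pairs, miR399a, d and f 17 each, and miR399e 16. The stretches for the other members are shown likewise. That of NLA lies in its 5′ UTR (chr1:635401-635421, plus strand) with 20 pairs to miR827, and that of SUVH6 in its coding part (chr2:9665559-9665579, minus strand) with 19 pairs to miR778. These are sequence matches, and no cleavage was measured.
NLA: uGUUUGUUGAUGGUCAUCUAA
SUVH6: uGGUaUACAUAAACCAAGCCA

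Levels are in RPM, the reads of a miRNA per 1000000 of the total reads that the study states for a library, where 1 read stands for 0.0810 RPM in cdf2, 0.0764 in dcl1-9 and 0.0870 in Col. The miRNA counts sum to 5248526 in cdf2, 378685 in dcl1-9 and 8833288 in Col, and reads shared by family members can be counted more than once in these sums. A count of 3 reads or fewer was taken as the detection floor, which is 0.243 RPM in cdf2, 0.229 in dcl1-9 and 0.261 in Col. Of the 8 miRNAs, 3 were at or under the floor in cdf2 (miR399d, miR399e and miR778), 7 in dcl1-9 (all but miR399b) and 0 in Col.

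miR399b and miR399c were the abundant rows. miR399b had 437 reads in cdf2, 5 in dcl1-9 and 492 in Col, which are 35.4 RPM (32.1 to 38.9), 0.382 RPM (0.124 to 0.892) and 42.8 RPM (39.1 to 46.8) in the same order of libraries. miR399c had 446 reads in cdf2, 1 in dcl1-9 and 492 in Col. The 2 rows were equal in Col and differed by 9 reads in cdf2 and by 4 in dcl1-9, although their mature sequence is the same, and the rule for reads that match both is not given in the sources used here. They ranked 71 of 328 rows in Col, with 78.0% of rows below them, and miR399b had rank 76 in both mutants, among 328 rows in cdf2 and 338 in dcl1-9.

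The minor forms were at most 5.31 RPM in any library. miR399f, the most abundant of them, had 19 reads in cdf2, 2 in dcl1-9 and 61 in Col, or 1.54 RPM (0.926 to 2.40), 0.153 RPM (0.0185 to 0.552) and 5.31 RPM (4.06 to 6.82). miR399a had 5 reads in cdf2, 0 in dcl1-9 and 23 in Col. miR399d had 2 reads in cdf2, 2 in dcl1-9 and 17 in Col. Thus miR399d was at the floor in both cdf2 and dcl1-9, where no difference can be read. miR399a and miR399f had more reads in cdf2 than in dcl1-9. The intervals of miR399a overlap, however, at 0.131 to 0.945 RPM in cdf2 and 0 to 0.282 RPM in dcl1-9. miR399e, the form with most differences from miR399b, had 0 reads in cdf2, 0 in dcl1-9 and 8 in Col, and the counting interval of 0 reads reaches 0.299 RPM in cdf2 and 0.282 RPM in dcl1-9, just above the floor.

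miR827 had 29 reads in cdf2, 0 in dcl1-9 and 62 in Col, which are 2.35 RPM (1.57 to 3.37) in cdf2, 0 RPM (0 to 0.282) in dcl1-9 and 5.40 RPM (4.14 to 6.92) in Col. Its level in Col could not be told from that of miR399f, whose interval nearly coincides with it. miR778, directed at SUVH6, had 1 read in cdf2, 0 in dcl1-9 and 4 in Col, so that Col was the sole library in which it exceeded the floor. In Col the order of levels was miR399b and miR399c, then miR827, miR399f, miR399a, miR399d, miR399e and miR778. The intervals of neighbours in this order overlap, except between miR399c and miR827 and between miR399f and miR399a.

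**Figure D1:**
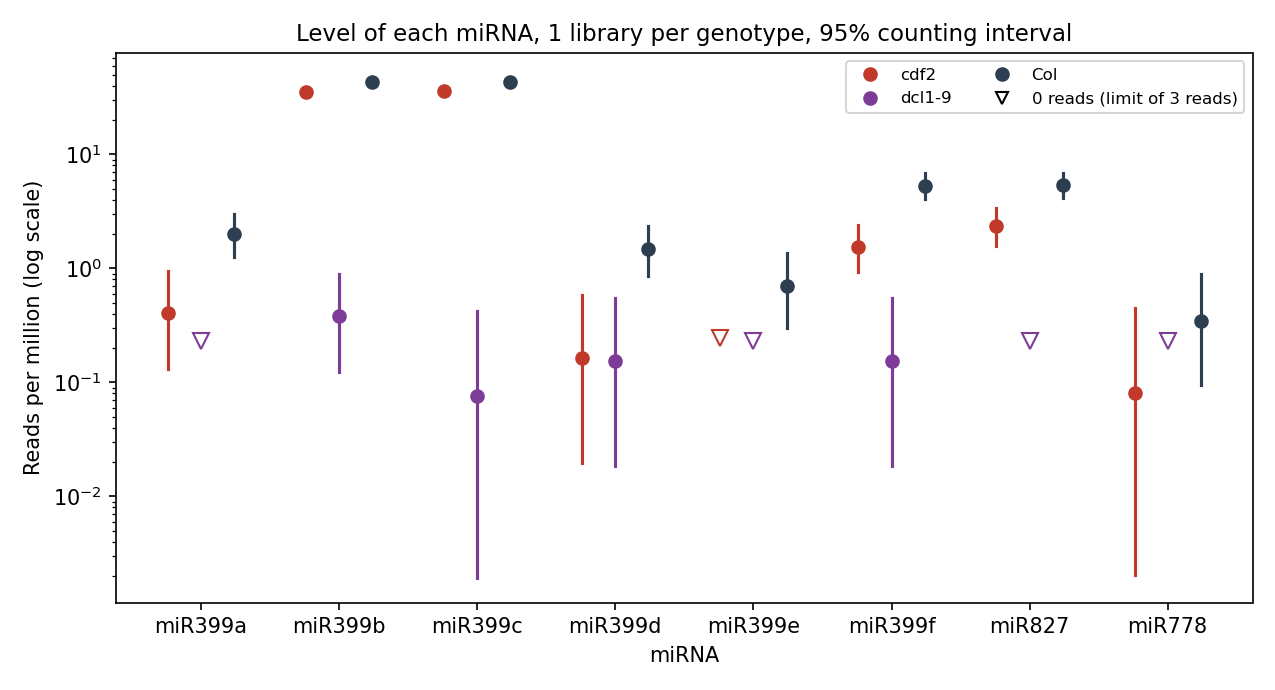
Level of each miRNA in RPM (log axis) in the cdf2, dcl1-9 and Col libraries, with 1 library per genotype; points are values, lines are 95% counting intervals, and open triangles mark rows with 0 reads at the limit of 3 reads. miR399b and miR399c lie near 35 to 43 RPM in cdf2 and Col, and the other rows at or below 5.40 RPM in each library.

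The comparison of cdf2 with Col shows these miRNAs in a mutant of CDF2, a protein that the study found to interact with DCL1. The study names a possible influence of differing developmental stage between cdf2 and Col, and blotted other miRNAs from inflorescences for that reason. In these libraries genotype and stage cannot be told apart. A row was called lower or higher where both libraries together held at least 10 reads, the difference was at least 1.5-fold and the counting interval excluded 1. miR399a, miR399d, miR399f and miR827 were lower in cdf2, and none of the 8 was higher. miR399d, at the floor with 2 reads in cdf2, was at 0.109 of its Col level (0.0123 to 0.461), or 0.164 with 3 reads taken for its 2. miR399a was at 0.202 (0.0601 to 0.544), miR399f at 0.290 (0.163 to 0.492) and miR827 at 0.435 (0.270 to 0.687). miR399b and miR399c were at 0.826 (0.725 to 0.942) and 0.843 (0.740 to 0.961) of Col, less than a 1.5-fold difference.

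Enough reads for a call were present in 6 of the 8 rows, and 4 of these were called lower, beside 28.7% of all 230 rows tested. None of the 6 was called higher, beside 8.26% of the 230. The 4 rows had under 100 reads in both libraries together, a range of depth in which 22.2% of 90 rows were called lower. miR399a and miR399d reached 10 reads through Col alone. The median fold change, with counts of 3 or fewer set to 3, was 0.355 over the 6 rows and 0.757 over all 230. The filter thus favours rows high in Col, and the median is a description only. Of the rows that also had over 10 reads in cdf2, miR399f ranked 10 and miR827 ranked 25 from the lowest of the 230 fold changes, while miR399b and miR399c ranked 130 and 133, near the middle. miR399e was 2.87-fold lower in cdf2 with 3 reads taken for its 0, and at least 1.83-fold lower by its interval (up to 0.545 of Col). Its 8 reads were too few for a call, and for miR778 (fold change 0.233, 0.00472 to 2.35) no difference was detectable at this depth.

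**Figure D2:**
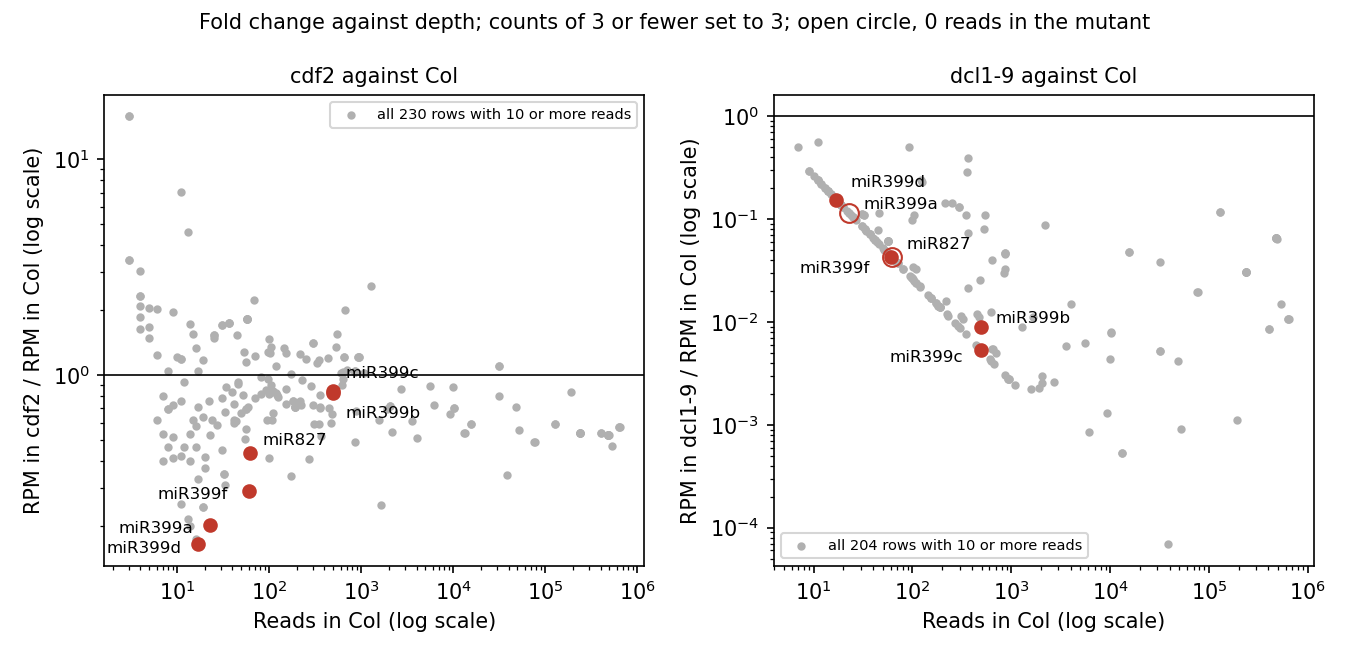
Ratio of RPM in each mutant to RPM in Col (log axis) against reads in Col (log axis) for cdf2 on the left and dcl1-9 on the right; grey points are the 230 and 204 rows with at least 10 reads, red points the 6 miRNAs described (open where the mutant had 0 reads), and counts of 3 or fewer are set to 3, so that rows at the floor fall on a straight line. In cdf2, miR399d, miR399a and miR399f lie at the lower edge of the cloud and miR399b and miR399c in its middle.

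These folds depend on how the libraries are scaled. Against total reads, the fold changes of cdf2 are multiplied by 1.05 with the library totals in the deposited tables, by 1.19 with TMM, by 1.31 using size factors from DESeq2, by 1.81 using the sum of miRNA counts and by 0.570 with the genome-matched reads that the study states, and the calls over all rows change with them. Of the 230 rows, 66 were called lower and 19 higher by total reads, against 60 lower and 20 higher with the deposited totals, 42 and 36 under TMM, 21 and 50 by the DESeq2 factors, 7 and 87 when scaled to the sum of miRNA counts, and 156 and 4 by genome-matched reads, a total smaller than the miRNA sum in cdf2 and in Col. miR399a, miR399d and miR399f were called lower under all 6 scales, with an interval for miR399a that reached 0.984 with the sum of miRNA counts. miR827 was called lower under all of them but one, and was at 0.787 (0.488 to 1.24) of Col with the sum of miRNA counts. miR399b was at 0.471 of Col by genome-matched reads, where it and miR399c (0.480) were called lower, at 0.980 with TMM, at 1.09 with DESeq2's size factors and at 1.49 with the sum of miRNA counts, so its direction turned with the scale.

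**Figure D3:**
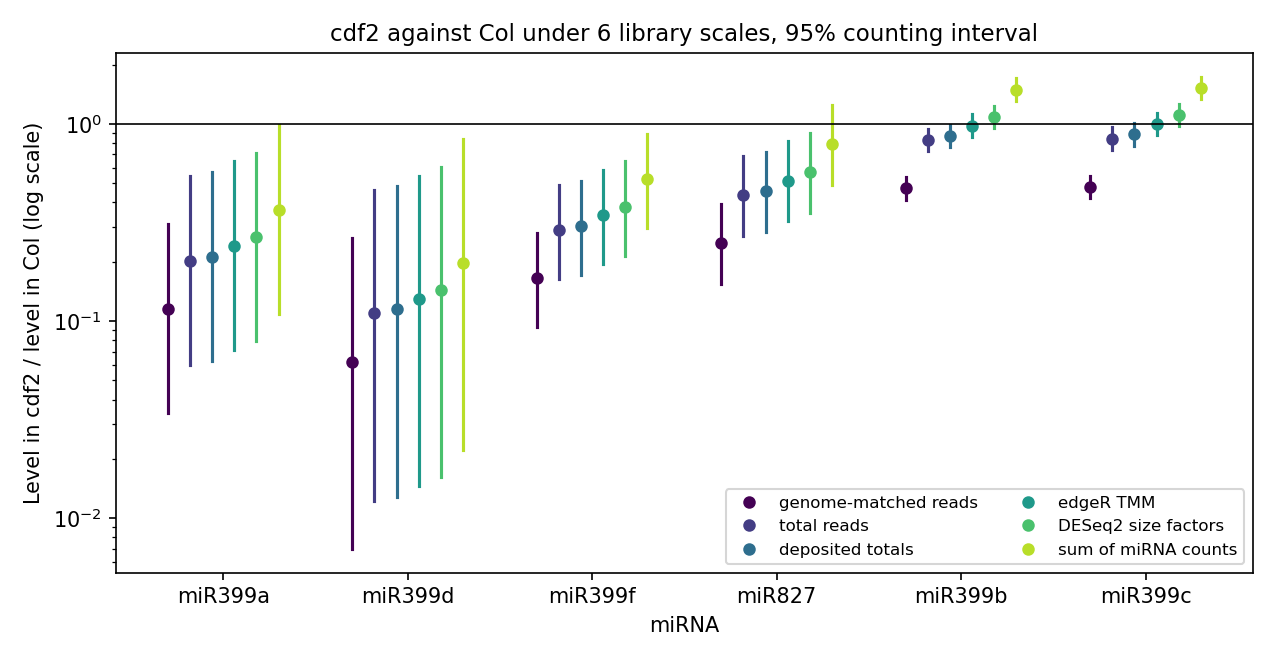
Level in cdf2 relative to Col (log axis) of the 6 miRNAs with at least 10 reads under 6 ways of scaling the libraries, with 95% counting intervals; the line marks equal levels. The points of miR399a, miR399d, miR399f and miR827 lie below the line under each scale, and those of miR399b and miR399c cross it.

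The ratio of one miR399 form to another within a library is free of that choice, and these ratios were chosen after the values were seen. The minor forms together had 26 reads beside 437 of miR399b in cdf2, which is 5.95% of miR399b, against 109 beside 492 in Col, which is 22.2%. The ratio was thus 3.72-fold lower in cdf2 (0.269 of Col, exact interval 0.165 to 0.425), and 0.263 with miR399c as the base. By form, the ratio to miR399b was 0.245 (0.0721 to 0.667) of that in Col for miR399a, 0.132 (0.0148 to 0.564) for miR399d and 0.351 (0.195 to 0.607) for miR399f. No difference among these 3 was detectable at this depth, since the ratio of miR399a to miR399f was 0.698 of Col with an interval of 0.183 to 2.25, and that of miR399d to miR399f 0.378 with 0.0392 to 1.85.

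As a share of the miR399 reads, with 1 row for each mature sequence, miR399b made up 94.4% (91.9 to 96.3%) of 463 reads in cdf2 and 81.9% (78.5 to 84.9%) of 601 reads in Col. miR399f made up 4.10% (2.49 to 6.33%) in cdf2 and 10.1% (7.85 to 12.8%) in Col. The 4 minor forms all carry U at position 13, and they come both from the chromosome 2 cluster and from MIR399a on chromosome 1, so they are not a single locus. Because miR399a and miR399b differ by 1 base and the number of mismatches allowed in counting is not given in the sources used here, the part of miscounted reads in these shares was not tested.

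By point values, miR827 lay between miR399b and the pooled minor forms in its difference from Col. Its ratio to miR399b was 6.64% in cdf2 and 12.6% in Col, or 0.527 of Col (0.321 to 0.849). The pooled minor forms, of which miR399d and miR399e were at the floor in cdf2, had a ratio to miR827 of 89.7% in cdf2 and 176% in Col. This is 0.510 of Col (0.263 to 0.988), an interval that nearly reaches 1. For miR399f, the most abundant minor form, the interval of its fold change (0.163 to 0.492) overlaps that of miR827 (0.270 to 0.687). The summed miR399 reads, which are mostly miR399b, were at 0.717 of Col in cdf2 (0.634 to 0.810) by total reads, but at 1.30 (1.15 to 1.47) with the sum of miRNA counts.

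**Figure D4:**
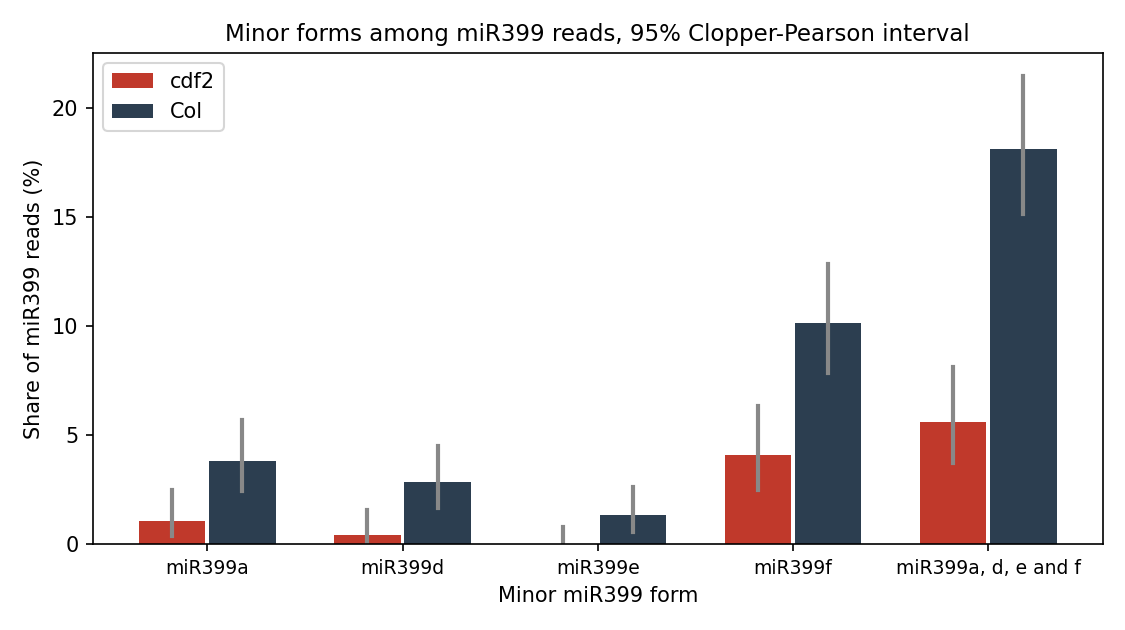
Share of each minor form, and of the 4 together, among the miR399 reads of cdf2 (463 reads) and Col (601 reads), in percent; bars are shares and grey lines 95% Clopper-Pearson intervals. The 4 forms together made up 5.62% in cdf2 and 18.1% in Col.

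The comparison of dcl1-9 with Col shows these miRNAs in a mutant of DCL1, and the study used this mutant as a control. The libraries do not measure the cutting of precursors. No row of the 8 had more than 5 reads in dcl1-9, and the 6 rows that reached 10 reads over both libraries were all called lower, beside 99% of the 204 rows tested and 0% called higher. All 6 passed the read minimum through Col alone, so nothing about them is read from this count. miR399b, with 5 reads against 492, was at 0.00893 of Col (0.00289 to 0.0210), which is 112-fold lower. miR399c, with 1 read against 492, was at 0.00179 of Col (4.51e-05 to 0.00999), or at 0.00536 with 3 reads taken for its 1. miR827, with 0 reads against 62, was 23.5-fold lower with the floor of 3 reads taken for its 0. By its interval (up to 0.0538 of Col) it was at least 18.6-fold lower. miR399a, with 0 against 23, was 8.73-fold lower against the floor, and at least 6.54-fold lower by its interval (up to 0.153).

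miR399f was at 0.0288 (0.00341 to 0.109) and miR399d at 0.103 (0.0116 to 0.435) of Col, each from 2 reads in dcl1-9. Set to the floor of 3 reads, they were at 0.0432 and 0.155. With counts of 3 or fewer set to 3, the median fold change was 0.0428 over the 6 rows and 0.0464 over all 204, and most of these miRNAs are then at the floor, where the fold is set by the Col count. The summed miR399 reads were 9 in dcl1-9 and 601 in Col, at 0.0132 of Col (0.00598 to 0.0251). The minor forms made up 4 of the 9 reads, a share of 44.4% with an interval of 13.7 to 78.8%, so the make-up of the family in dcl1-9 cannot be read at this depth. The deposited totals multiply the dcl1-9 folds by 1.70, which puts the floor-based values of miR827 and miR399a at 0.0721 and 0.194 of Col and leaves all 6 calls. Scales built on the miRNA counts multiply the dcl1-9 folds by 26.6 to 41.4, and over the 204 rows the calls, 202 lower and 0 higher by total reads, become 71 and 29 with either the sum of miRNA counts or the DESeq2 factors, and 56 and 41 with TMM. Such scales are set by the miRNA rows themselves and take out a fall that nearly all rows share. A call under them is relative to the other miRNAs. miR399b and miR399c were still called lower under all of these. With TMM they were at 0.369 (0.119 to 0.868) and 0.0739 (0.00187 to 0.414) of Col, from 5 reads and 1 read in dcl1-9. Their mature sequence is the same, so these calls are not separate results. The other 4 tested rows were called under none of the 3 scales.

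Other miRNAs known to respond to phosphate were compared from a list. miR2111a and miR2111b, which share a sequence and rise on phosphate shortage, had 12 reads each in cdf2, 4 in dcl1-9 and 32 in Col. They were called lower in cdf2 (0.349 of Col, 0.164 to 0.696) and in dcl1-9 (0.110, 0.0282 to 0.310), but not in cdf2 with the sum of miRNA counts. In dcl1-9 they were called higher with TMM, which is a call relative to the other miRNAs. Their star strands, with 9 and 10 reads in cdf2 and 8 and 4 in Col, were not called at the main scale. The miRNA sum was the only scale with a star call in cdf2, where miR2111b* was called higher. These stars were not joined to dcl1-9, so they were not tested there. No star rows of the 8 miRNAs are listed in the cdf2 and Col libraries. Rows of dcl1-9 that were not joined to Col were not searched for them.

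Families reported to fall on phosphate shortage did not share one direction in cdf2. The 3 miR398 rows, whose family acts on copper proteins, were all called lower, at 0.174 to 0.245 of Col from 3 to 5 reads in cdf2 and 16 to 19 in Col, beside 22.2% of rows of under 100 reads. miR398b and miR398c have identical counts. All 3 miR398 rows passed the read minimum through Col alone, and miR398a was at the floor in cdf2. Of the 6 miR395 rows, whose family acts on sulfate assimilation, 3 were called higher and 0 lower, at 1.49 to 1.74 of Col, beside 8.26% of all rows called higher. The 3 have identical counts, 69 in cdf2 and 37 in Col, and are in effect 1 value. Of the 15 miR169 rows, whose family acts on NF-YA transcription factors, 0 were called in either direction, at 0.620 to 1.21 of Col. With the sum of miRNA counts, the miR398 calls were lost, all 6 miR395 rows were called higher and so were 7 miR169 rows. Under DESeq2's size factors the 3 miR398 rows were still called lower, and 6 miR395 and 5 miR169 rows were called higher, and with TMM 3 miR398 rows were called lower and 6 miR395 rows higher. By genome-matched reads no miR395 row was called, and 10 miR169 rows were called lower. In dcl1-9, all 3 miR398, 6 miR395 and 15 miR169 rows were called lower by total reads, beside 99% of all rows. With the sum of miRNA counts, 10 miR169 rows were still called lower and miR169b was called higher, as with TMM and the DESeq2 factors. These calls too are relative to the other miRNAs.

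For the 6 members with at least 10 reads in Col, which leaves out miR399e and miR778, the rows most alike over the 3 libraries were taken as those of other families with the smallest distance in log2 of RPM after adding 1 read. For miR827 these were miR167c (distance 0.265), with 34 reads in cdf2, 0 in dcl1-9 and 56 in Col, miR832-5p (0.430) and miR5023 (0.485). For miR399b they were miR156g (0.458), with 337, 6 and 445 reads in the same order, miR163 (0.562) and miR172e (0.653). miR399c was nearest to miR848 (0.882), miR159c (0.974) and miR169g* (1.07), miR399f to miR5020c (0.649), miR773 (1.01) and miR400 (1.07), and miR399a to miR472 (0.616), miR319c (0.714) and miR4243 (0.762). For miR399d they were miR831 (0.688), with 2, 1 and 13 reads, and miR398b and miR398c (1.17 each). The likeness rests on 3 values a row, and all of these members but miR399b are at the floor in dcl1-9. miR399b and miR399c have the same mature sequence but different nearest rows, with 5 reads and 1 read in dcl1-9.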

How the data were processed

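Small RNAs of 3 genotypes were sequenced by Illumina, 1 library each. After adaptor removal, the authors matched reads to known hairpins (miRBase 15, Bowtie), assigned them to mature miRNAs of release 16, and deposited the raw read count of each miRNA. The mismatches allowed and the rule for reads matching several miRNAs are not given in the sources used here. TAIR10 is named in the submitters' processing notes, and sequences came from TAIR10.1. Of 328 Col rows, 308 were joined to dcl1-9, 16 through a later name under which a deposited table repeats the Col count. The authors' fold changes and p-values in those tables were not used.

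Counts were scaled to RPM by the study's total reads (in units of 1000000 reads, 12.3 in cdf2, 13.1 in dcl1-9 and 11.5 in Col). The methods name perfectly aligned reads; the genome-matched totals that the study states were added as an alternative after the data were seen. Folds have Clopper-Pearson intervals and ratios of forms exact conditional intervals (scipy 1.17.1); no p-value was computed, as no spread between libraries can be estimated. Calls were tested on counts simulated with counting error only and a known library scale. That test leaves out spread between libraries and the choice of scale. Alternatives were the deposited totals, the miRNA sum, TMM (edgeR 4.0.16), DESeq2 1.42.0 size factors, 1 added read, no minimum count, a 2-fold limit and all 6 miR399 rows. All 8 miRNAs were named, with a list of other phosphate-responsive miRNAs and the 3 nearest rows of other families. Members and lists were chosen with earlier results of these data known, and ratios between forms after their values were seen.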

Additional observations from a re-analysis of the deposited data

How the results depend on the processing

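In cdf2, the number of miRNAs called was 4 to 5 under each alternative but genome-matched reads, where all 6 tested were called lower, and with the sum of miRNA counts the calls held miR399c as higher and no longer miR827. The summed miR399 level in cdf2 was at 0.717 of Col by total reads, 0.408 by genome-matched reads (added after seeing the data), 0.850 under TMM, 0.942 by the DESeq2 factors and 1.30 by the miRNA sum. In dcl1-9, 2 of the 6 calls were left under the miRNA sum, the DESeq2 factors and TMM, those of miR399b and miR399c with their shared mature sequence. The summed miR399 level was at 0.349, 0.391 and 0.544 of Col under these scales. Under these scales miR399d, from 2 reads in dcl1-9, was at 2.74 (0.308 to 11.6), 3.07 (0.344 to 12.9) and 4.28 (0.479 to 18.0) times Col. miR399f, also from 2 reads, was at 1.19 (0.141 to 4.49) with TMM. All of these intervals include 1, so no direction can be read from them. The ratio of the minor miR399 forms to miR399b, whose alternatives were chosen after seeing the data, moved by less than its interval with 1 read added. The same held with miR399c as the base, which has the same mature sequence and so is not a separate check. No paired analysis was possible because each genotype has 1 library. Depth limits miR399d, miR399e and miR778 in cdf2 and all rows but miR399b in dcl1-9.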
